A study of Homo sapiens with 6 samples.

Results

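The MCM helicase family was examined in U2OS cells, a human osteosarcoma line, after knockdown of LSD1, the histone H3K4 demethylase encoded by KDM1A. The members were chosen by gene name. They were MCM2 to MCM7, MCM8, MCM9, MCM10 and MCMBP, 10 of the 15585 genes in the RNA-seq table, and all 10 passed the filter on low counts that left 11844 genes. The 6 libraries were total RNA of U2OS cells transfected for 48 h with control siRNA (siCTR, n = 3) or with LSD1 siRNA (siLSD1, n = 3). Both groups were unmodified apart from the transfected siRNA as far as the labels say. The labels give no synchronization, and they do not say whether the 3 replicates were separate cultures, so p-values measure only the spread between these libraries. U2OS is an established line, and which LSD1 siRNA was used for RNA-seq is not given in the sources used here.

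MCM2 to MCM7 form a hexameric ring with 1 copy of each subunit. The ring is loaded onto DNA at replication origins in G1 by the origin recognition complex with CDC6 and CDT1, and it is dormant until CDC45 and the GINS complex join it to make the active replicative helicase. MCM8 and MCM9 form a separate helicase that is known for its role in homologous recombination, MCM10 is a scaffold needed for helicase activation that lacks a helicase domain, and MCMBP binds MCM subunits outside the loaded ring. Transcription of the ring genes is known to rise before S phase under E2F factors. The question addressed here was whether the RNA for the helicase, and the balance between its subunits, differed after LSD1 knockdown.

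The promoters of ring subunits are shown because E2F control is the known link between these genes, and for MCM7 the window with an E2F word is printed. Each window runs from 250 bases before to 50 bases after a RefSeq transcription start on GRCh38.p14, written 5′ to 3′ on the gene's strand, and capitals mark the E2F words. Windows were found for 8 of 10 members, among them 4 of the 6 ring genes, and MCM4 and MCM5 had no entry. The MCM2 window is chr3:127598161-127598460 on the plus strand, the MCM3 window chr6:52284693-52284992 on the minus strand, the MCM6 window chr2:135876394-135876693 on the minus strand and the MCM7 window, the first of 3 for that gene, chr7:100101348-100101647 on the minus strand.
MCM2: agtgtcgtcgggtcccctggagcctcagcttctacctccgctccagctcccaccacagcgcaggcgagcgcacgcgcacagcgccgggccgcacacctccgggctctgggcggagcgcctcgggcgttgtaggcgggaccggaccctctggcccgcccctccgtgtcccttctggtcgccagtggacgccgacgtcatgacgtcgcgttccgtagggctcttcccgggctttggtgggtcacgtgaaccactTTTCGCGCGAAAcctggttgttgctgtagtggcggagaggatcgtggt
MCM3: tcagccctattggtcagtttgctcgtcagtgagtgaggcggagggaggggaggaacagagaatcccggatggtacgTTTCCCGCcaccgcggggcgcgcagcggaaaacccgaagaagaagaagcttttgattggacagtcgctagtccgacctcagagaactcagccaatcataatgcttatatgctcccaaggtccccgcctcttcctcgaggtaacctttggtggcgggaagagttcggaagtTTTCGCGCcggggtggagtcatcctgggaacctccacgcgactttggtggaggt
MCM6: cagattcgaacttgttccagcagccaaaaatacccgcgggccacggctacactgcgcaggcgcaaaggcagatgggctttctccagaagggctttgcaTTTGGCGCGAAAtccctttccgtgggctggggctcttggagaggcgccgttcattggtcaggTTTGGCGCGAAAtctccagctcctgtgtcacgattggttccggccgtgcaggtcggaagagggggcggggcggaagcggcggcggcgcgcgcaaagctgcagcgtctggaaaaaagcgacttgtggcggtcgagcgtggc
MCM7: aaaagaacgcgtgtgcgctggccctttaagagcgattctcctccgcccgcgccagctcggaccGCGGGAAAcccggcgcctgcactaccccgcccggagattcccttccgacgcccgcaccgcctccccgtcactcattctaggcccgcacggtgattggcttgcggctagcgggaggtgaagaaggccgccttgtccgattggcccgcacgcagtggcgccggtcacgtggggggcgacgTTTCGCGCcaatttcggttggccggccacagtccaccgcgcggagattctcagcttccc

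The E2F words searched on both strands were TTTCCCGC, TTTCGCGC, TTTGCCGC and TTTGGCGC. In the MCM2 window a word began at base 253 of 300, just past the annotated start, and a word on the other strand began at base 257, so that both share the run TTTCGCGCGAAA. MCM6 held the run TTTGGCGCGAAA at bases 99 and 161, again with a word on each strand. MCM3 and MCM7 each held a separate upstream word, at bases 77 and 64, and TTTCGCGC next to the start, at bases 247 and 242. Of the 8 members with a window, 6 held at least 1 E2F word in a window, the others being MCM8 and, in its second window, MCMBP, and none was found in the windows of MCM9 and MCM10, in the first window of MCMBP or in the other 2 windows of MCM7. Counted by window, since some members have more than 1, 6 of the 11 windows of the family held such a word, and 3.31% of all 35116 promoter windows of this length did. CCAAT was found in 8 of the 11 windows against 34.6% of all windows, and the E-box CACGTG in 3 of 11, those of MCM2, MCM7 and MCM8, against 7.26%. A match describes letters only and no binding was measured in these libraries.

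The libraries held 12513511 to 13561344 counted reads. KDM1A, the target of the siRNA, fell from 489 ± 16.4 CPM (counts scaled by TMM to library depth) in siCTR to 90.4 ± 6.92 CPM in siLSD1 (SD, n = 3), which is 18.5% of the control level. Markers listed for U2OS were uneven: VIM stood at 395 to 464 FPKM (reads scaled by gene length and library depth), COL1A1 at 1.35 to 2.24 and FN1 at 2.01 to 6.44, RUNX2 and SPARC were at most 0.0416 and 0.061, and COL1A2 was not in the table. Of the epithelial markers EPCAM reached 1.57, CDH1 2.33, KRT5 0.0316 and KRT14 0.224 FPKM, and of the blood markers PTPRC reached 0.0104 and HBB 0.138 FPKM, while CD3E was not in the table. The library siCTR replicate 2 differed most from the rest, since the chi-square of its counts per degree of freedom was 22.8 to 39.4 against each other library, where the remaining pairs gave 6.5 to 24.5.

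All members were transcribed in both groups, over a wide range of levels. Per length, MCM2 was the highest in siCTR with 142.9 ± 1.19 FPKM (SD, n = 3), followed by MCM7 with 118.3 ± 2.03, MCM4 with 110.9 ± 5.18 and MCM3 with 99.97 ± 0.853 FPKM. MCM5 with 51.5 ± 2.25 FPKM and MCM6 with 50.6 ± 2.89 FPKM came next, and their libraries overlapped, so that their order is not resolved. The remaining members stood below the ring, MCMBP at 30.7 ± 2.61, MCM10 at 13.1 ± 0.915, MCM8 at 9.93 ± 1.26 and MCM9 at 2.26 ± 0.281 FPKM, and except for MCM5 and MCM6 no neighbours in this order overlapped in siCTR. This order also rests on the gene lengths behind the FPKM values. By CPM, which takes no account of length, MCM4 at 482 was above MCM7 at 433 in siCTR. MCM2 ranked 307 among the 15585 genes of the table by FPKM in siCTR and MCM9 ranked 9310. In siLSD1 the mean of MCM4, 92.8 ± 3.85 FPKM, was below that of MCM3, 98.4 ± 2.19 FPKM, and the libraries of these subunits overlapped. The means of MCM5 and MCM6 also changed places, at 49.4 ± 1.6 and 50.5 ± 1.95 FPKM, again with libraries that overlapped.

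**Figure D1:**
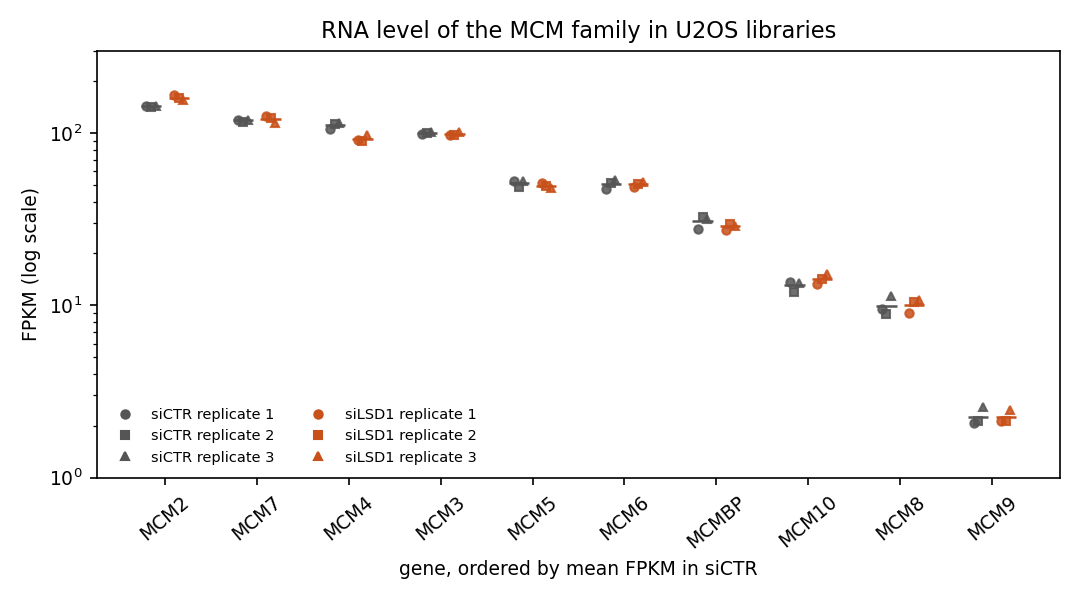
FPKM of each family member in the 6 libraries on a log axis, with siCTR in grey and siLSD1 in orange, 1 symbol per library and a bar at the group mean. MCM2 to MCM7 lie between 47.4 and 166.6 FPKM in every library and MCM9 between 2.07 and 2.59 FPKM, and the groups stand apart only at MCM2 and MCM4.

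No member was called different between siLSD1 and siCTR after adjustment over all genes tested. The family's log2 fold changes were small, with 4 members higher and 6 lower and a median of -0.01 against -0.01 for all tested genes. In the fit of all 6 libraries the 95% intervals lay within ±0.5 for all 10, with MCM4 nearest the bound at -0.49. With 1 library left out the MCM4 estimate ran from -0.305 to -0.231, and intervals were not worked out for those fits. At an unadjusted p under 0.05 in edgeR's quasi-likelihood test, 1 of 10 members was called, MCM4, where 14.0% of all tested genes were called, and at an adjusted p under 0.05 the counts were 0 of 10 and 1.44%. DESeq2 and limma-voom gave the same 2 counts of members, 1 and 0. The libraries of the groups did not overlap for 2 of 10 members, MCM2 and MCM4, where 21.4% of all tested genes had groups that did not overlap. Each count of members was thus near or below the share of all genes.

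MCM4, the subunit with the lowest fold change, lies on chromosome 8 from base 47960185 to 47978160 in GENCODE release 44 on GRCh38, on the plus strand. Its read counts were 5861, 6393 and 6695 in siCTR and 5276, 4889 and 5727 in siLSD1. On the CPM scale these were 451, 498 and 498 in siCTR and 393, 392 and 425 in siLSD1, so every siLSD1 library was below every siCTR library. The mean was 482 ± 26.8 CPM in siCTR and 403 ± 18.4 CPM in siLSD1 (SD, n = 3), or 83.6% of control. The log2 fold change of MCM4 was -0.26 with a standard error of 0.11 and a 95% interval from -0.49 to -0.03, with an unadjusted p of 0.0295 and an adjusted p of 0.286 in edgeR. Without siCTR replicate 3, siLSD1 replicate 1 or siLSD1 replicate 2, the unadjusted edgeR p of MCM4 was 0.107, 0.0759 and 0.144, while the log2 fold change stayed at -0.24, -0.24 and -0.23. When the fit took GC content and length into account, MCM4 had a log2 fold change of -0.33 and an adjusted edgeR p of 0.025, in a fit that called 7.19% of all genes at the adjusted threshold.

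MCM2 had an estimate of the opposite sign. The gene spans bases 127598410 to 127622436 of chromosome 3 on the plus strand. Its libraries gave 517, 520.5 and 518 CPM in siCTR and 598, 578 and 565 CPM in siLSD1, with every siLSD1 library above every siCTR library. The siCTR libraries lay unusually close together, with a mean of 518 ± 2.02 CPM, and the siLSD1 mean was 580.1 ± 16.6 CPM (SD, n = 3). The log2 fold change of 0.16 ± 0.10 (SE) had a 95% interval from -0.06 to 0.38, and the adjusted edgeR p was 0.498, so a difference was not called. With GC content and gene length corrected, the log2 fold change of MCM2 was 0.17 with an unadjusted edgeR p of 0.0373 and an adjusted p of 0.175.

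The other ring subunits had groups that overlapped. MCM3, on chromosome 6 from base 52264014 to 52284881, gave 315, 326 and 324 CPM in siCTR and 308.5, 314 and 326 CPM in siLSD1, with a log2 fold change of -0.02 and a 95% interval from -0.24 to 0.19. MCM5, on chromosome 22 from base 35400134 to 35425431, gave 185, 175 and 186 CPM in siCTR and 179, 174 and 171 CPM in siLSD1, with a log2 fold change of -0.06 and an interval from -0.28 to 0.16. MCM6, on chromosome 2 from base 135839626 to 135876443, gave 175, 195 and 198 CPM in siCTR and 179, 191 and 196 CPM in siLSD1, with a log2 fold change of -0.01 and an interval from -0.24 to 0.22. MCM7, on chromosome 7 from base 100092233 to 100101940, gave 431, 429.7 and 437 CPM in siCTR and 453, 445 and 422 CPM in siLSD1, with a log2 fold change of 0.02 and an interval from -0.20 to 0.24. The adjusted p-values of these subunits in edgeR were 0.827 to 0.985, and the intervals do not reach a change of 0.5 on the log2 scale in either direction.

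**Figure D2:**
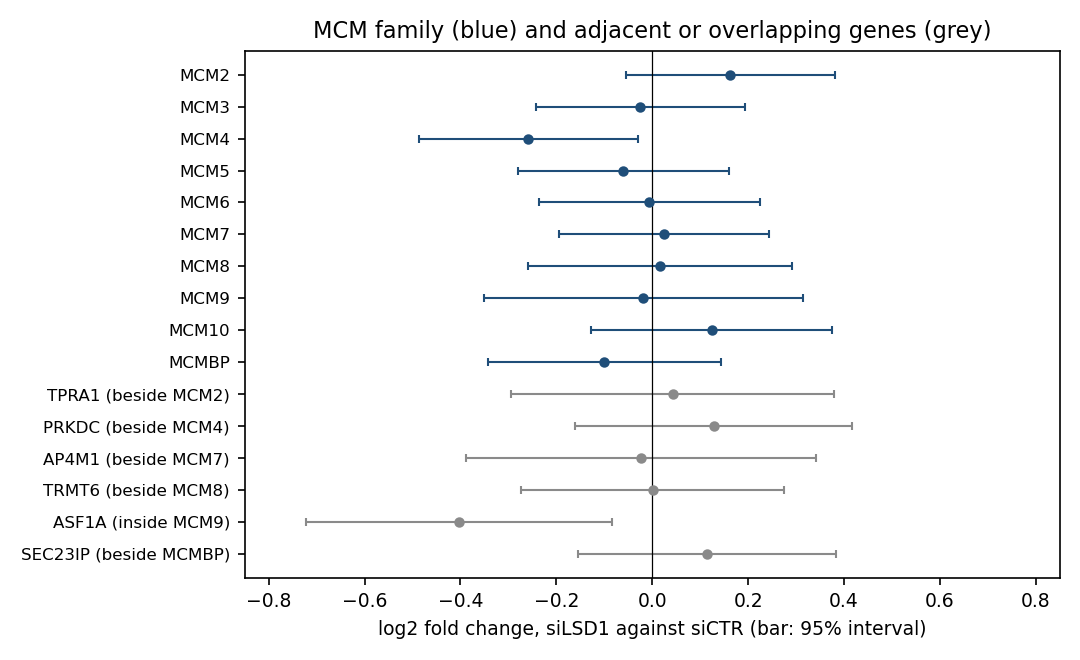
Log2 fold change of siLSD1 against siCTR from edgeR with its 95% interval, for the family members in blue and for genes that lie next to or overlap them in grey. In this fit of all libraries the intervals of all 10 members lie within ±0.5, with MCM4 nearest that bound. Those of MCM4 and ASF1A are the only intervals plotted that do not reach 0.

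No difference in the level of the ring as a whole was resolved. The summed CPM of MCM2 to MCM7 was 2075, 2144 and 2160.4 in siCTR and 2110.2, 2094 and 2104 in siLSD1. The means were 2126 ± 45.2 and 2103 ± 7.97 CPM (SD, n = 3), a difference of -1.11%, with p = 0.4 in a two-sided exact permutation test over the libraries, for which 10 distinct splits allow no p below 0.1. With 1 library left out, the difference was smallest, at -0.312%, without siCTR replicate 3 and largest, at -2.29%, when siCTR replicate 1 was omitted. For summed FPKM it was -0.404%. The groups overlapped and the siLSD1 libraries lay within the range of the siCTR libraries. Without MCM2 and MCM4, the sum of MCM3, MCM5, MCM6 and MCM7 was 1126 ± 18.8 CPM in siCTR and 1119 ± 4.53 CPM in siLSD1.

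The balance between subunits was taken from log2 counts (pseudocount 0.5) centred on the mean of the 6 subunits in the same library, which removes the scaling of libraries. Relative to the ring mean, MCM4 stood at 0.51, 0.60 and 0.58 in siCTR and at 0.30, 0.30 and 0.40 in siLSD1. Its group means differed by -0.23 on the log2 scale, where the pooled SD was 0.055, and no siLSD1 library reached the lowest siCTR library. MCM2 stood at 0.70, 0.67 and 0.64 in siCTR and at 0.91, 0.86 and 0.81 in siLSD1, a difference of 0.19 with a pooled SD of 0.039, again with no overlap. The differences of the other subunits were 0.05 for MCM7, 0.02 for MCM6, 0.002 for MCM3 and -0.03 for MCM5, and their groups overlapped. With 1 library left out these ran from 0.027 to 0.084, -0.014 to 0.057, -0.016 to 0.018 and -0.064 to -0.002, in the same order. For MCM2 and MCM4 the exact permutation p was 0.1, the smallest the design allows, and 0.3 after adjustment over the 6 subunits.

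The unevenness of the ring, the SD over the 6 subunits of these differences, was 0.136 on the log2 scale. No other split of the libraries gave as large a value, and the exact permutation p was 0.1, the smallest it can be with 3 libraries against 3. The exact test therefore cannot reach a p under 0.05 with this number of libraries, whatever the size of the difference. The GC content of the longest transcript was 57.4% for MCM2 and 46.9% for MCM4, against a median of 47.9% over all tested genes, and it was 57.0% for MCM5 and 57.6% for MCM7, whose centred differences were near 0. The libraries differed in how genes of high GC content compared with genes of low GC content, by log2 values of 0.21, -0.03 and -0.08 in siCTR and 0.31, 0.02 and -0.39 in siLSD1, so this measure varied within groups and the groups overlapped. Its part in the balance was not tested beyond the correction given above for single genes.

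**Figure D3:**
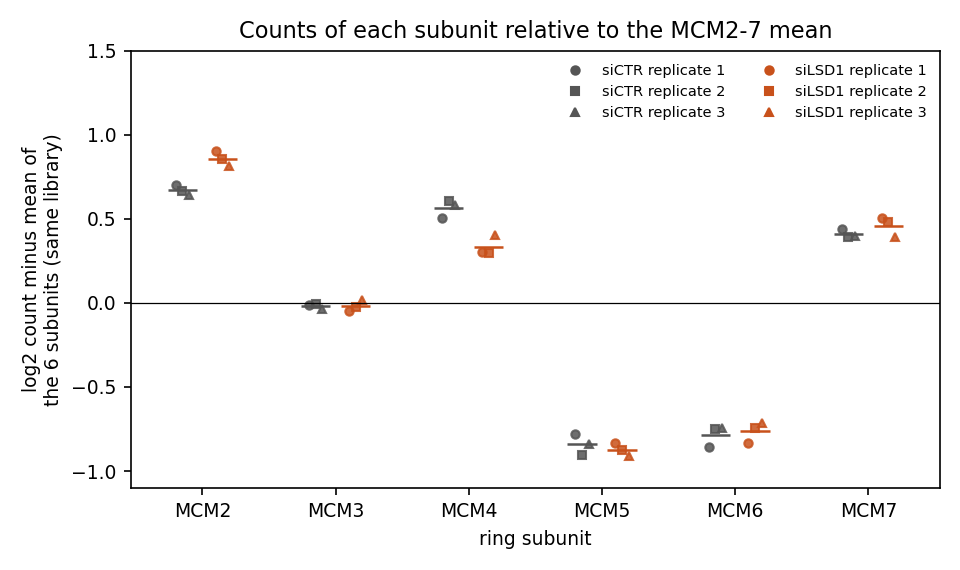
Log2 count of each MCM2-7 subunit minus the mean of the 6 subunits in the same library, with siCTR in grey and siLSD1 in orange, 1 symbol per library and a bar at the group mean. The group means are 0.67 in siCTR and 0.86 in siLSD1 for MCM2, and 0.56 and 0.33 for MCM4, without overlap of the libraries, and the other subunits overlap.

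As shares of the summed FPKM of the ring, where equal amounts would give 16.7% each, MCM2 made up 24.9% ± 0.446 in siCTR and 28.0% ± 0.732 in siLSD1 (SD, n = 3). MCM4 made up 19.3% ± 0.713 and 16.2% ± 0.751. MCM7 held 20.6% and 21.1%, MCM3 17.4% and 17.2%, MCM5 8.96% and 8.64%, and MCM6 8.81% and 8.83% in siCTR and siLSD1. MCM2, MCM7 and MCM3 were at or above an equal share in all libraries, and MCM5 and MCM6 were well below it in all libraries. The ratio of the highest to the lowest subunit was 2.89 ± 0.158 in siCTR and 3.30 ± 0.121 in siLSD1, and the ratio of MCM2 to MCM4, a pair chosen after the values were seen, was 1.37, 1.25 and 1.25 in siCTR and 1.82, 1.77 and 1.60 in siLSD1. The shares and ratios between subunits rest on the gene lengths behind FPKM, and they describe RNA only, since protein was not measured in these files.

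**Figure D4:**
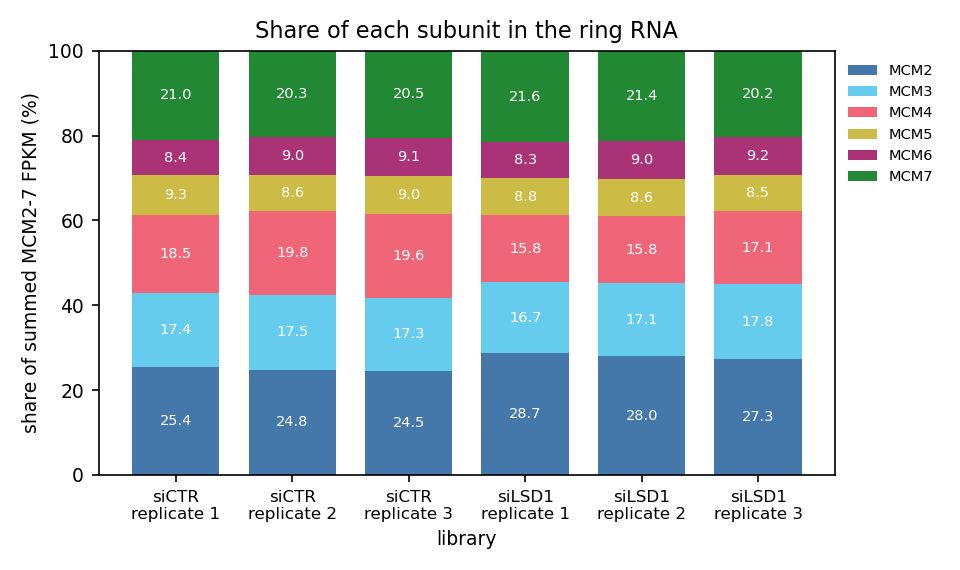
Share of each subunit in the summed FPKM of MCM2-7, in percent, with 1 stacked bar per library and the share printed in each segment. The MCM2 segment is 24.5 to 25.4% in siCTR and 27.3 to 28.7% in siLSD1, and the MCM4 segment 18.5 to 19.8% and 15.8 to 17.1%.

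MCM8 and MCM9, the recombination helicase pair, showed no difference that could be resolved. MCM8, on chromosome 20 from base 5950652 to 5998977, gave 72.2, 69.8 and 87.3 CPM in siCTR and 68.85, 80.4 and 82.7 CPM in siLSD1. The log2 fold change of MCM8 was 0.02, the 95% interval ran from -0.26 to 0.29 and the adjusted edgeR p was 0.969. MCM9, on chromosome 6 from base 118813442 to 118935162, had 164 to 214 reads per library, the fewest of the family, and 12.6, 13.3 and 15.9 CPM in siCTR against 13.0, 13.2 and 15.2 CPM in siLSD1. The log2 fold change of MCM9 was -0.02 with the widest interval of the family, from -0.35 to 0.31, and an adjusted edgeR p of 0.970. For both genes replicate 3 was the highest of each group, and the groups overlapped. The FPKM ratio of MCM8 to MCM9 was 4.39 ± 0.192 in siCTR and 4.50 ± 0.343 in siLSD1 (SD, n = 3), so the pair was far from equal in RNA in both groups. Relative to the mean of the ring subunits, MCM8 stood at 10.4% and 10.6% and MCM9 at 2.36% and 2.35% of the FPKM in siCTR and siLSD1.

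MCM10, which acts when the loaded helicase is activated, lies on chromosome 10 from base 13161558 to 13211110. It gave 62.9, 56.6 and 62.7 CPM in siCTR and 61.0, 66.6 and 71.0 CPM in siLSD1, where the lowest siLSD1 library overlapped the siCTR libraries. The log2 fold change of MCM10 was 0.12 ± 0.12 (SE) with an interval from -0.13 to 0.37 and an adjusted edgeR p of 0.661. MCMBP, the binding protein of free MCM subunits, lies on the same chromosome from base 119829404 to 119892556 and gave 117, 141 and 135 CPM in siCTR and 116, 127 and 124 CPM in siLSD1. For MCMBP the log2 fold change was -0.10 ± 0.11 (SE) with an interval from -0.34 to 0.14 and an adjusted edgeR p of 0.726. The siLSD1 libraries of MCMBP lay between the lowest and the highest siCTR library, apart from siLSD1 replicate 1, which lay just below. Against the mean ring subunit, MCMBP stood at 32.1% ± 2.54 and 30.1% ± 1.51 of the FPKM and MCM10 at 13.7% ± 0.936 and 14.96% ± 1.18 in siCTR and siLSD1.

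The other genes of the helicase pathway were taken from a list of 36 genes, all of which were tested. Of these, 15 were higher and 21 lower, with a median log2 fold change of -0.05 against -0.01 for all tested genes. At an unadjusted p under 0.05 in edgeR, 0 were called higher and 2 lower, which is a smaller share than the 14.0% of all tested genes, and 0 were called after adjustment. DESeq2 called 3 of the 36 at the unadjusted threshold and 13.2% of all genes. With 1 library left out, the edgeR count ran from 0 without siLSD1 replicate 2 and 1 without siCTR replicate 3 to 6 without siLSD1 replicate 3, where 8.86%, 12.2% and 13.7% of all genes were called, and after correction for GC content and gene length it was 10, where that fit called 24.4% of all genes. At the adjusted threshold that fit called 2 of the 36, DONSON and ASF1A, and 7.19% of all genes. A fit with a block for replicate number also called 2 at that threshold, ASF1A and TONSL, and 7.57% of all genes. The groups did not overlap for 6 of the 36, where 21.4% of all genes had such groups.

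Among 9 genes that load the ring or restrain its loading, 0 were called at the unadjusted threshold, where 14.0% of all tested genes were called. Of the 9, 2 were higher and 7 lower with a median log2 fold change of -0.10, and of all tested genes 5598 were higher and 6246 lower with a median of -0.01. CDT1, which brings the ring to the origin, gave 90.5 ± 6.14 CPM in siCTR and 83.5 ± 13.6 CPM in siLSD1 (SD, n = 3). CDC6, the ATPase that works with it, gave 173 ± 7.95 and 176 ± 10.5 CPM. GMNN, which encodes geminin, the inhibitor of CDT1, gave 109.9 ± 16.3 and 102 ± 9.58 CPM. The log2 fold changes were -0.12, 0.03 and -0.11 with adjusted edgeR p-values of 0.732, 0.934 and 0.753, and the libraries of the groups overlapped for all of them.

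Among 13 genes that activate the loaded ring, 8 were higher and 5 lower, and DONSON was the only gene called at the unadjusted threshold, or 1 of 13 where 14.0% of all tested genes were called. The groups did not overlap for 4 of the 13, against 21.4% of all tested genes. DONSON, a replisome protein needed for helicase assembly and fork stability, gave 89.4, 111 and 95.9 CPM in siCTR and 69.9, 83.6 and 86.1 CPM in siLSD1. Every siLSD1 library of DONSON was below every siCTR library, with a log2 fold change of -0.31 ± 0.13 (SE), an unadjusted p of 0.0311 and an adjusted p of 0.294 in edgeR, and leaving out siCTR replicate 2, siCTR replicate 3, siLSD1 replicate 1 or siLSD1 replicate 2 took the unadjusted p to 0.0545 or above, with log2 fold changes of -0.21, -0.33, -0.22 and -0.33. With GC content and length in the fit, the adjusted edgeR p of DONSON was 0.0444. CDC45, the subunit that joins the ring to form the active helicase, gave 77.2, 81.4 and 83.2 CPM in siCTR and 85.1, 92.1 and 89.3 CPM in siLSD1. The groups of CDC45 did not overlap, and the log2 fold change of 0.14 ± 0.11 (SE) had an interval from -0.09 to 0.37 and an adjusted edgeR p of 0.583.

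Among 8 genes that unload the ring at termination, 2 were higher and 6 lower, 0 were called at the unadjusted threshold, against 14.0% of all tested genes, and the log2 fold changes ran from -0.21 to 0.12. Among 6 partners of the family, ASF1A was the only gene called at that threshold, against the same 14.0%. ASF1A, a histone chaperone that is known to connect with the MCM2-7 ring through histones, gave 27.6, 33.8 and 30.7 CPM in siCTR and 19.5, 23.1 and 27.0 CPM in siLSD1. Its groups did not overlap and its log2 fold change was -0.40 ± 0.15 (SE), with an unadjusted p of 0.0174 and an adjusted p of 0.235 in edgeR. The unadjusted edgeR p of ASF1A was 0.0644, 0.0778 and 0.0541 without siCTR replicate 2, siLSD1 replicate 1 or siLSD1 replicate 2, with log2 fold changes of -0.33, -0.29 and -0.39. With GC content and length in the fit its adjusted edgeR p was 0.037. With a block for replicate number, in a fit that called 7.57% of all genes at the adjusted threshold, it was 0.0365.

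Cell cycle genes were counted beside the family because the ring genes are transcribed with the G1/S genes, and a different share of cells in a phase and a different amount of RNA per cell cannot be told apart in bulk RNA. Of 15 G1/S genes, 14 were tested, with 5 higher and 9 lower and a median log2 fold change of -0.04, as a description only, because this list was shortened after its values were known. At an unadjusted p under 0.05 in edgeR, CCNE1 at -0.39 and CCNE2 at -0.45, the E-type cyclins, were called, where 14.0% of all tested genes were called. Of 16 G2/M genes, 11 were higher and 5 lower with a median of 0.10, and HMMR at 0.39 was the only gene called. These 3 genes are named after their values were seen, and 0 genes of either list were called after adjustment. The part of the cell cycle in the values of MCM2 and MCM4 was not tested.

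Several members lie next to or overlap another gene in the GENCODE annotation, and these neighbours had values of their own. Distances are between the outermost annotated starts. PRKDC, which encodes the catalytic subunit of DNA-dependent protein kinase, starts 7 bases from MCM4 on the opposite strand. Its log2 fold change was 0.13 with a 95% interval from -0.16 to 0.42, and its libraries gave 1277, 952 and 1312 CPM in siCTR and 1186, 1293 and 1391 CPM in siLSD1, with groups that overlapped. The library siCTR replicate 2 was the lowest for PRKDC, and without it the log2 fold change was -0.002. PRKDC and MCM4 thus had estimates of unlike sign with all libraries, and the difference between the genes was not tested. TPRA1 starts 143 bases from MCM2 on the opposite strand and had a log2 fold change of 0.04 with an interval from -0.29 to 0.38. TRMT6, a subunit of a tRNA methyltransferase, starts 94 bases from MCM8 and SEC23IP 151 bases from MCMBP, both on the opposite strand, with log2 fold changes of 0.0007 and 0.11 and groups that overlapped. The RefSeq starts of MCMBP lie further inside the gene, so that SEC23IP is not next to those starts.

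For several members the annotation shows shared exons, and the strand setting of the authors' counting is not stated, so reads in those bases cannot be assigned with certainty. AP4M1, a subunit of an adaptor complex, overlaps the start of MCM7 by 392 exon bases on the opposite strand and gave 12.2 ± 2.01 CPM in siCTR and 12.0 ± 1.15 CPM in siLSD1 (SD, n = 3), a small amount beside MCM7. The RefSeq starts of MCM7 behind the promoter windows lie further inside the gene, and from these the genes do not overlap. ASF1A lies inside MCM9 on the opposite strand and shares 205 exon bases with it, and it had more reads than MCM9 in all 6 libraries. The 95% intervals of the log2 fold changes, from -0.72 to -0.08 for ASF1A and from -0.35 to 0.31 for MCM9, overlapped, and the difference between the genes was not tested. MCM2 shares 1113 exon bases, MCMBP 194 and MCM9 a further 100 with unnamed lncRNA genes on the opposite strand that were not in the table. MCM8 shares 2564 exon bases with an unnamed gene on the same strand that was not in the table, and the counts of MCM2, MCMBP, MCM9 and MCM8 are uncertain to that extent. MCM7 also contains the miRNA genes MIR106B, MIR93 and MIR25, which were not in the table.

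The genes whose log-CPM followed the mean of MCM2 to MCM7 most closely over the 6 libraries were ZYG11A, SUCLA2, POC5, PCGF3 and COQ10B, out of 9055 genes that averaged 10 CPM or more. Pearson's r was 0.996, 0.975, 0.967, 0.957 and 0.957. The mean of the ring covered only 0.064 on the log2 scale over the 6 libraries, from 8.31 in siCTR replicate 1 to 8.38 in siCTR replicate 3. With so small a range and 6 points that share library depth, these correlations are a description of the libraries.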

How the data were processed

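RNA-seq was performed on U2OS cells, with 3 siCTR and 3 siLSD1 libraries grouped and numbered by their labels. Clean reads were aligned by the authors with STAR, and the authors deposited whole-number read counts per gene for 6 libraries without normalization. FPKM values per gene length were also deposited by the authors. The genome build, annotation, counter and strand setting are not given in the sources used here. The deposited tables also hold the authors' own fold changes and p-values from DESeq2, which were not used. A further set of counts in the tables for single pairs of libraries, with a median ratio of 1.11 to the first, served as an alternative (second counting). No 2 libraries agreed within sampling noise, so all 6 counted as separate samples.

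The counts were analysed in the quasi-likelihood test of edgeR 4.0.16 (R 4.3.3), without covariates and after TMM scaling. The filter was filterByExpr at 10 counts, and all 11844 genes that passed were fitted together, with Benjamini-Hochberg adjustment and a biological coefficient of variation of 12.6%. Log-CPM values used a prior count of 2. Exact permutation tests over the libraries were made with Python 3.11.15, numpy 2.4.6, pandas 2.3.3 and scipy 1.17.1, and figures with matplotlib 3.10.9. The edgeR steps were also run on counts simulated with a common dispersion for all genes and with depth as the only difference between libraries of a group. That run checks the steps and not the fit to these libraries. With 12513511 to 13561344 reads counted per library, counting error and library spread both limit the precision, the first most for genes with few reads such as MCM9.

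Named genes were the members, KDM1A, genes of the loading, activation, unloading and partner lists with an unadjusted p under 0.05, CDC45, CDT1, CDC6 and GMNN, genes of the table overlapping a member or starting within 1000 bases of its start, and the 5 genes averaging 10 CPM or more that correlated best with the ring mean. The lists were written from general knowledge, and 1 gene was taken out of the G1/S list after its value was known and is not reported here. The members, lists and rules were chosen with earlier results of these data known. Coordinates are from GENCODE release 44 (GRCh38), to which 15352 of 15585 genes were matched by symbol, 389 of them through an older symbol, and promoters from RefSeq. Alternatives were DESeq2 1.42.0, limma-voom (limma 3.58.1), library size scaling, no filter, at least 1 CPM in 3 libraries, a replicate block, leaving out each library, the second counting, and a correction for GC content and length (lowess, span 0.3, 99.3% of tested genes). For the ring they were FPKM, a pseudocount of 1, and centring on the median.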

Additional observations from a re-analysis of the deposited data

How the results depend on the processing

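The KDM1A decrease kept its direction and its call under every alternative run. The unevenness of the ring was 0.127 to 0.156 and the summed level -2.29% to -0.312% over their alternatives, and their exact tests could not pass 0.05 in any of them. The number of members with an unadjusted p under 0.05 was 0 to 1 with a library left out, 2 after the GC content and gene length correction (MCM2 and MCM4, where 24.4% of all genes were called), and 1 in the other alternatives. The number with an adjusted p under 0.05 was 1 after that correction (MCM4, where 7.19% of all genes were called) and 0 in the others. Why the GC correction raised these counts was not tested, and it raised the calls over all genes from 171 to 846. For the pathway list of 36 genes, the count of 2 became 10 after the GC correction, where 24.4% of all genes were called. With a library left out it was 0 to 6, in fits that called 8.86% to 14.3% of all genes.

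Same-numbered libraries correlated in their deviations from the group means at 0.328, 0.074 and 0.31. Each library correlated best with its own number, and these values do not settle whether the numbers pair the libraries. With a replicate block, the calls over all genes were 2546 at the unadjusted and 897 at the adjusted threshold, against 1662 and 171, the pathway count was 5, with 2 at the adjusted threshold (ASF1A at an adjusted edgeR p of 0.0365, and TONSL, named after its value was seen), and the members' counts stayed at 1 and 0, with MCM4 at -0.26. The block moved the summed ring level to -1.07% and left the unevenness at 0.136 (exact permutation p = 0.25, the smallest that 3 pairs allow).

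Fold changes near 0 changed sign. With a library left out, the log2 fold change ran from -0.06 to 0.03 for MCM6, from -0.043 to 0.122 for MCM8, from -0.095 to 0.086 for MCM9, from -0.214 to 0.012 for CDT1, from -0.013 to 0.071 for CDC6, from -0.102 to 0.218 for TPRA1, from -0.002 to 0.21 for PRKDC, from -0.152 to 0.08 for AP4M1 and from -0.049 to 0.1 for TRMT6. Among those that kept their sign, MCMBP ran from -0.176 to -0.04, GMNN from -0.22 to -0.008, MCM10 from 0.071 to 0.18, SEC23IP from 0.032 to 0.188, MCM7 from 0.002 to 0.055 and MCM3 from -0.046 to -0.008. The second counting turned MCM8 to -0.006, MCM9 to 0.034 and TRMT6 to -0.009, and no filter turned TRMT6 to -0.002. The GC correction turned MCM8 to -0.054, CDT1 to 0.039 and CDC6 to -0.022. Without a change of sign it moved PRKDC to 0.017, SEC23IP to 0.043, GMNN to -0.035, TPRA1 to 0.012 and AP4M1 to -0.008. It also moved MCM3 to -0.051, MCM6 to -0.029, MCM7 to 0.044, MCM9 to -0.071 and TRMT6 to 0.010. The cause was not tested. With 3 libraries a group, the standard errors of the members, 0.10 to 0.15, limit what can be resolved.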
